A study of Rattus norvegicus with 2 samples.

Results

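The genes described here encode the enzymes that build fatty acids, triglycerides and cholesterol, with the regulators that switch those enzymes on. The list holds 39 genes, 19 of fatty acid and triglyceride synthesis and 20 of cholesterol synthesis, out of 13435 genes that a probe of the array could be assigned to. A probe was assigned where its accession belongs to the current rat symbol of a listed gene, and where a gene had several probes the brightest gives its value. A total of 38 listed genes had a probe, 51 probes in all, and every one of these probes was well above background on both arrays. Srebf1, which encodes a transcription factor of fatty acid synthesis, had no assigned probe and is not analysed here.

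Cells build fatty acids from acetyl-CoA in the cytosol, lengthen and desaturate them, and store them on a glycerol backbone as triglyceride. Cholesterol comes from the same acetyl-CoA through mevalonate, squalene and lanosterol. The SREBP transcription factors drive both routes, ChREBP and LXR act on the fatty acid route, and PPAR-gamma, the receptor that pioglitazone activates, is best known for driving lipid storage in fat cells.

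The samples were whole kidneys of female PCK rats, which carry a Pkhd1 mutation and are used to model recessive polycystic kidney disease, so the vehicle group carries the cystic disease too. Treatment ran between the ages of 4 and 20 weeks: each day the pioglitazone group received 10 mg/kg through a gavage needle, and the other group 0.5% DMSO as vehicle. Whether the pioglitazone dose held DMSO is not stated. Kidney RNA of several rats was pooled in each group, and 1 array was hybridised per pool. The submitters' texts differ on whether 5 or 3 rats entered a pool, and the normal +/+ rats that they mention are not analysed here.

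Of 43379 spots besides controls, 71.8% were well above background with vehicle and 73.1% with pioglitazone, and 0 were saturated. Kidney markers were present on both arrays: the thick ascending limb gene Umod gave signals of 195000 and 220000, the proximal tubule gene Slc34a1 23900 and 25900, and the podocyte gene Nphs1 774 and 1020. Signals are the scanner software's processed signals in arbitrary units, vehicle first. They cannot be compared between genes, because each probe has its own brightness. A difference is pioglitazone minus vehicle on the log2 scale relative to the 75th percentile of the array, which takes 0.08 off the raw log2 ratio. It is printed with its technical error, the software's spot error of both arrays combined. With 1 pooled sample per group there are no replicates, no p-value can be given, and the number of arrays limits the precision. In a whole kidney pool, fewer cells of a type and less RNA per cell cannot be told apart.

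Within fatty acid synthesis single genes lay to either side of 0, furthest on the lower side, and the cholesterol genes spread less widely. Differences of at least 1.5-fold that also exceeded 2 technical errors were seen in 4 of the 38 genes. Acacb and Acss2 were higher with pioglitazone, and Scd and Thrsp were lower. On the higher side Acss2, at 1.54-fold, lay just above the limit, and the Acacb probe was dim. Of all 10484 measured genes, 0.754% were higher and 1.76% lower by the same criterion. The 2 listed genes in each direction make up 5.26% of those measured. All 4 belong to the 18 measured genes of fatty acid and triglyceride synthesis and 0 to the 20 of cholesterol synthesis, a contrast that was not tested. Over the 38 genes the median difference was 0.06, from -1.98 to 0.75, and over all measured genes it was 0.03. The other 34 genes lay within 2 technical errors of 0, and 29 of them within 1. The share of all measured genes within these errors was not counted, so these counts do not set the list apart.

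**Figure D1:**
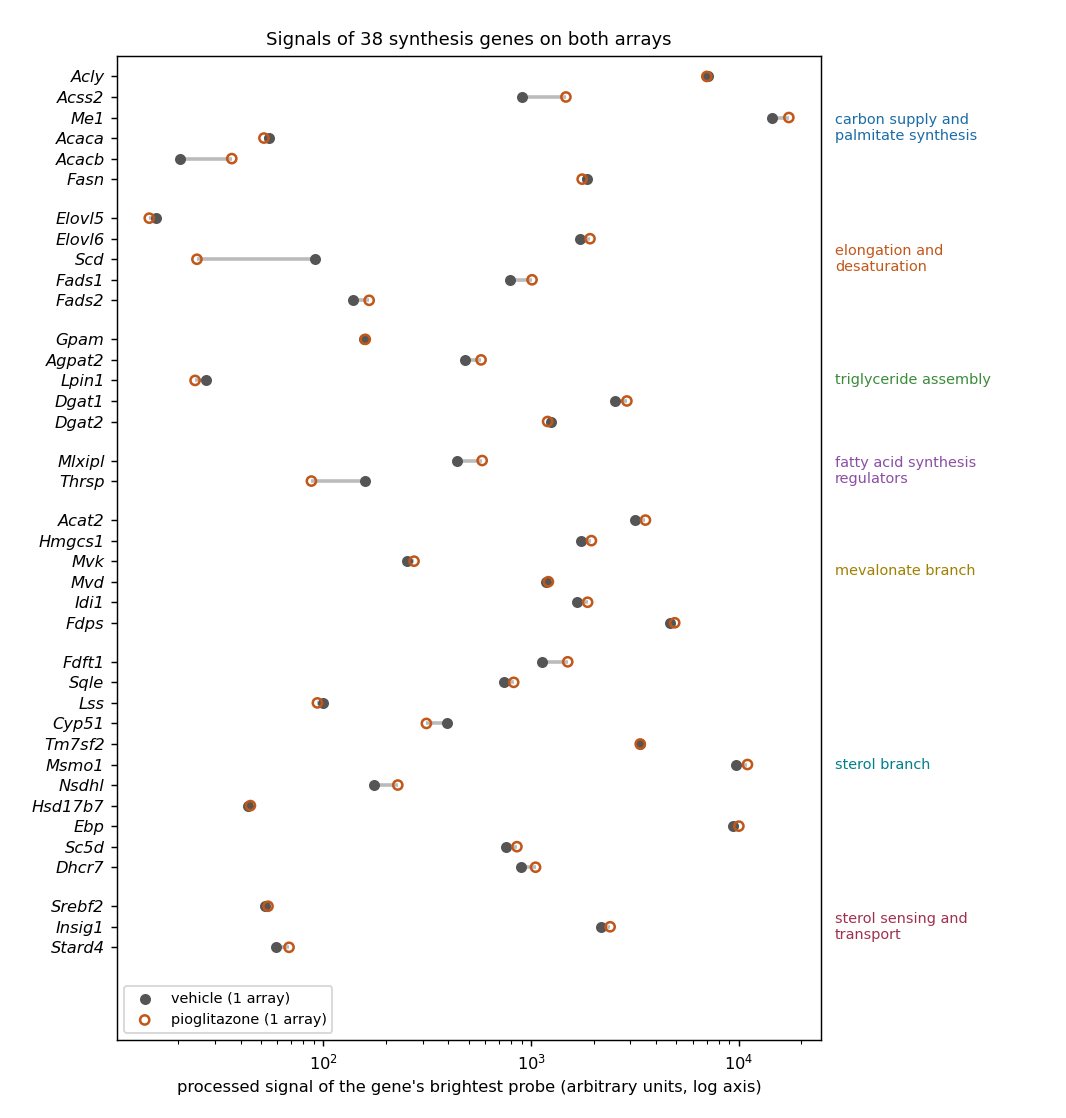
Processed signal of each gene's brightest probe (arbitrary units, log axis) on the vehicle array (filled points) and the pioglitazone array (open points), 1 array each, grouped by step of the pathway. The points lie far apart for Scd (91.4 and 24.6), Thrsp (158 and 87.5), Acss2 (900 and 1470) and Acacb (20.3 and 36.2), and nearly coincide for most other genes.

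The first steps supply carbon and reducing power and make palmitate. Acss2, which makes acetyl-CoA from acetate, gave a signal of 900 with vehicle and 1470 with pioglitazone, a difference of 0.63 ± 0.20 or 1.54-fold. This value lies just above the 1.5-fold threshold. Acly, which makes acetyl-CoA from citrate, gave 7120 and 7010, a difference of -0.10 ± 0.20. The 2 sources of cytosolic acetyl-CoA thus differed from each other by 0.73, more than 2 times their combined error of 0.29. This pair was chosen after its values were seen, so a gap was partly built into the choice and no conclusion is drawn from it. Acss1, the mitochondrial relative of Acss2, was at 0.06 ± 0.20, and the gap between the relatives of 0.57 stayed within 2 combined errors of 0.29. The malic enzyme Me1, a source of NADPH, had a pair of probes at 0.18 ± 0.20 and 0.28 ± 0.20, both higher with pioglitazone.

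The acetyl-CoA carboxylases make malonyl-CoA, the building block of the growing chain. Acaca is the cytosolic form that feeds fatty acid synthesis, and Acacb is the form at mitochondria, where malonyl-CoA holds back the entry of fatty acids for oxidation. Acacb gave signals of 20.3 and 36.2, a difference of 0.75 ± 0.25 or 1.68-fold higher, and Acaca gave 54.6 and 51.7, a difference of -0.16 ± 0.21. The difference between the 2 carboxylases was 0.91, with a combined error of 0.32. They too were paired after their values were seen, so no conclusion is drawn from this gap. The Acacb probe was dim: the lowest signals well above background were 7.66 and 7.16. The Acacb difference depends on how dim signals are treated. With 50 added to every processed signal it was 0.22, and with normexp, a background model, and the same offset it was 0.24, both below 1.5-fold. With normexp and no offset it was 0.68. Fasn, the synthase that assembles palmitate, gave 1860 and 1760 on its brightest probe and 1530 and 1610 on the other. Their differences were -0.16 ± 0.20 and -0.01 ± 0.20, both within 1 technical error of 0.

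**Figure D2:**
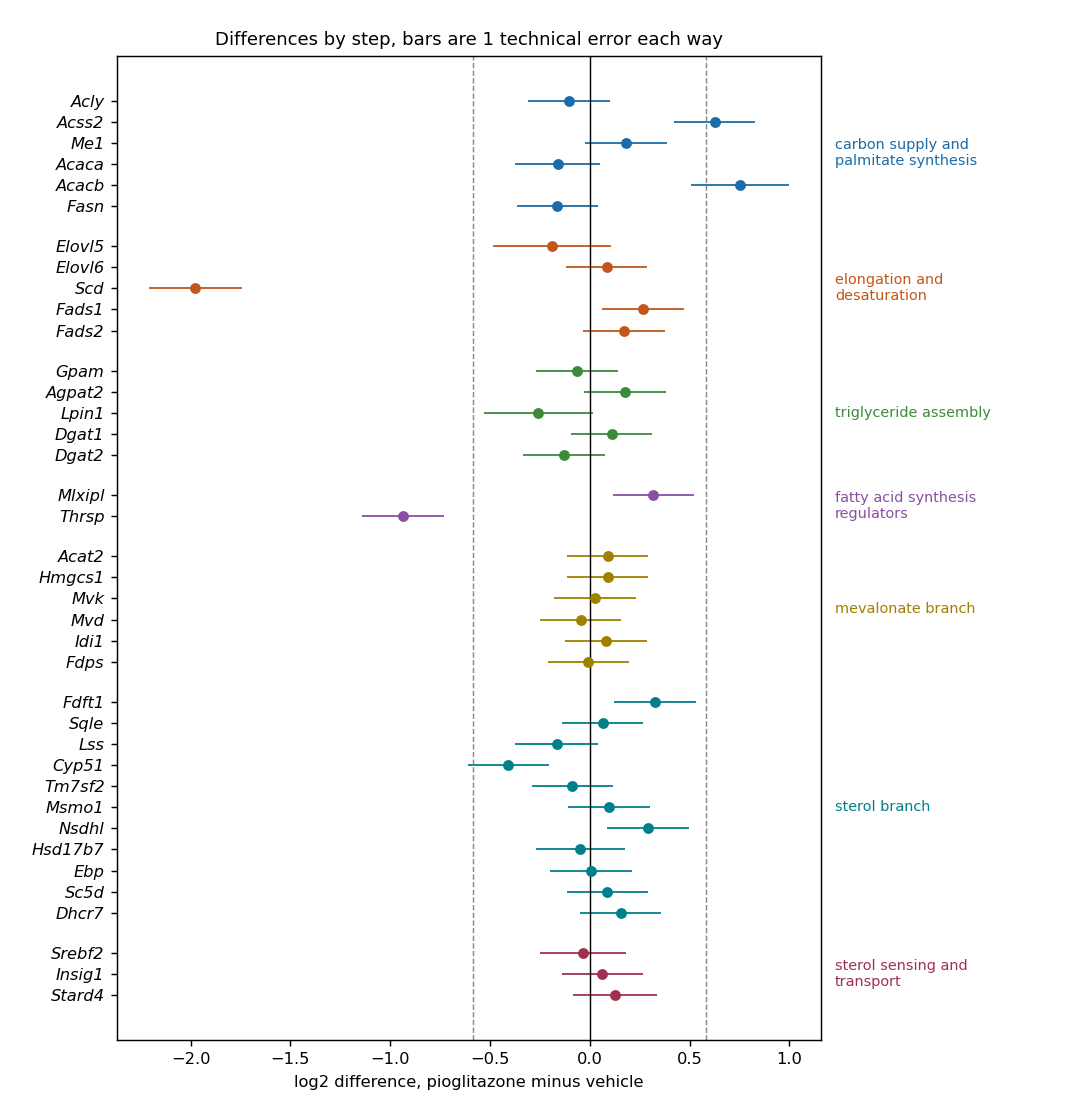
Log2 difference, pioglitazone minus vehicle, for the 38 measured genes grouped by step, with bars of 1 technical error each way and dashed lines at 1.5-fold. Scd (-1.98) and Thrsp (-0.93) lie left of the dashed lines, Acss2 (0.63) and Acacb (0.75) right of them, and all 20 cholesterol genes lie between them.

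Among elongases and desaturases, Scd stood apart. Scd, the stearoyl-CoA desaturase that makes monounsaturated fatty acids, gave a signal of 91.4 with vehicle and 24.6 with pioglitazone. The difference was -1.98 ± 0.23, or 3.93-fold lower, and it ranked 6 from the lowest of the 10484 measured genes. The difference was -0.996 with 50 added to the signals, -0.94 with normexp and that offset, and -1.76 with normexp alone. The related desaturase Scd2 gave 10500 and 11600, a difference of 0.06 ± 0.20, so the 2 desaturases differed by 2.04 with a combined error of 0.31. That pair was also chosen with its values known, so a gap was partly built into the choice. Scd was read from 1 probe, and the other probes of Scd2 were at -0.02 and 0.00. How far the probes of these close relatives take up each other's RNA was not tested.

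The other desaturases and the elongases did not follow Scd. Fads1 and Fads2, which desaturate polyunsaturated fatty acids, were at 0.27 ± 0.20 (signals 793 and 1010) and 0.17 ± 0.21 (139 and 166). Elovl5, an elongase of polyunsaturated chains, was dim at 15.6 and 14.5, with a difference of -0.19 ± 0.30. Elovl6, which lengthens palmitate to stearate, had one probe at 0.08 ± 0.20 (1710 and 1920) and another at -0.29 ± 0.21 (74.4 and 64.5). Its probes disagreed in sign, and the gap between them of 0.37 was the widest among probes of 1 listed gene.

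All 5 enzymes of triglyceride assembly lay within 1 technical error of 0, with a median difference of -0.06. Gpam, which attaches the first fatty acid to the glycerol backbone, gave 157 and 159 (-0.06 ± 0.21). Agpat2, which attaches the next, gave 480 and 574 (0.18 ± 0.20), and Lpin1, a phosphatidate phosphatase, gave 27.2 and 24.1 (-0.26 ± 0.27). Dgat1 and Dgat2 catalyse the last step. Dgat1 had a pair of probes at 0.11, with signals of 2530 and 2890 on the brighter, and Dgat2 had probes at -0.13, 0.13 and -0.06, the brightest with 1240 and 1200.

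The regulators of fatty acid synthesis went apart. Thrsp, a small protein that promotes lipogenesis and is abundant in fat and liver, gave 158 with vehicle and 87.5 with pioglitazone. Its difference of -0.93 ± 0.21 made it 1.91-fold lower, and it ranked 41 from the lowest of the 10484. Mid1ip1, its close relative and partner, was at 0.00 ± 0.20 with signals of 6280 and 6660 on its brightest probe, and at -0.05 on the other. Mlxipl, which encodes the sugar-sensing factor ChREBP, gave 440 and 581, a difference of 0.32 ± 0.20 that lay within 2 technical errors. Thrsp and Mlxipl were further apart than 2 combined errors of 0.29 each, but they were paired after their values were seen. No conclusion is drawn from their gap.

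The cholesterol route was nearly level from its first enzyme to its last. None of its 20 genes met the 1.5-fold criterion, and their median difference was 0.06, from -0.41 to 0.33. Of all measured genes only 0.754% were higher and 1.76% lower by that criterion, so a count of 0 does not set the route apart. At a lower limit of 0.32 on the log2 scale, without regard to the technical error, Fdft1 was higher and Cyp51 lower. By that limit 3 of all 38 listed genes were higher and 3 lower, 7.89% each way, against 5.01% and 7.98% of all measured genes. The other genes past that limit were the 4 described above.

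The 6 enzymes of the mevalonate branch had the narrowest range, from -0.05 to 0.09. Acat2, the cytosolic thiolase that joins acetyl-CoA units, gave 3150 and 3550 (0.09), and Hmgcs1, the HMG-CoA synthase, gave 1730 and 1950 (0.09). A dimmer Hmgcs1 probe gave 76.9 and 71.5 (-0.19 ± 0.22). The mevalonate kinase Mvk was at 0.03 (253 and 273), the decarboxylase Mvd at -0.05 (1180 and 1210) and the isomerase Idi1 at 0.08 (1670 and 1870), its other probe at 0.03. Fdps, which makes farnesyl diphosphate, was at -0.01 (4660 and 4910) on one probe and 0.02 on the other. Each brightest probe carried a technical error of 0.20, more than the whole range of the branch.

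Along the sterol branch, 7 of 11 enzymes had differences above 0 and 4 below, with a median of 0.07. Fdft1, the squalene synthase that commits farnesyl units to sterols, was highest at 0.33 ± 0.20, with signals of 1130 and 1500. Cyp51, the lanosterol demethylase, was lowest at -0.41 ± 0.20, with signals of 392 and 313. The gap between these enzymes was 0.73, with a combined error of 0.29. They were picked as the highest and lowest of 11, so a wide gap was built into the choice and no conclusion is drawn from it. Each alone was within 2 errors of 0. Nsdhl, which acts after Cyp51 on the same intermediates, was at 0.29 ± 0.21 (176 and 228).

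The remaining sterol enzymes were within 1 technical error of 0. Squalene epoxidase Sqle was at 0.07 (744 and 824), lanosterol synthase Lss at -0.17 (99.1 and 93.5) and the sterol reductase Tm7sf2 at -0.09 (3360 and 3350). The methyl sterol oxidase Msmo1 was at 0.10 (9720 and 11000), the ketosteroid reductase Hsd17b7 at -0.05 (43.4 and 44.5) and the sterol isomerase Ebp at 0.01 (9410 and 10000). The last enzymes, the desaturase Sc5d and the reductase Dhcr7, were at 0.09 (759 and 854) and 0.15 (891 and 1050). All 8 of these enzymes lay closer to 0 than Fdft1 and Cyp51, which were themselves within 2 technical errors of 0.

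The sensing and transport genes were level as well. Srebf2, which encodes the SREBP factor of cholesterol synthesis, had probes at -0.03 ± 0.22 (52.3 and 54.1) and 0.05 ± 0.34. Insig1, a target of SREBP that holds it in the endoplasmic reticulum when sterols are plentiful, had 4 probes. The brightest gave 2170 and 2400 (0.06 ± 0.20), and the others gave differences of -0.14, -0.15 and -0.25, so its direction is not settled. Stard4, which carries sterols between membranes, was at 0.13 ± 0.21 (59.0 and 68.3).

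**Figure D3:**
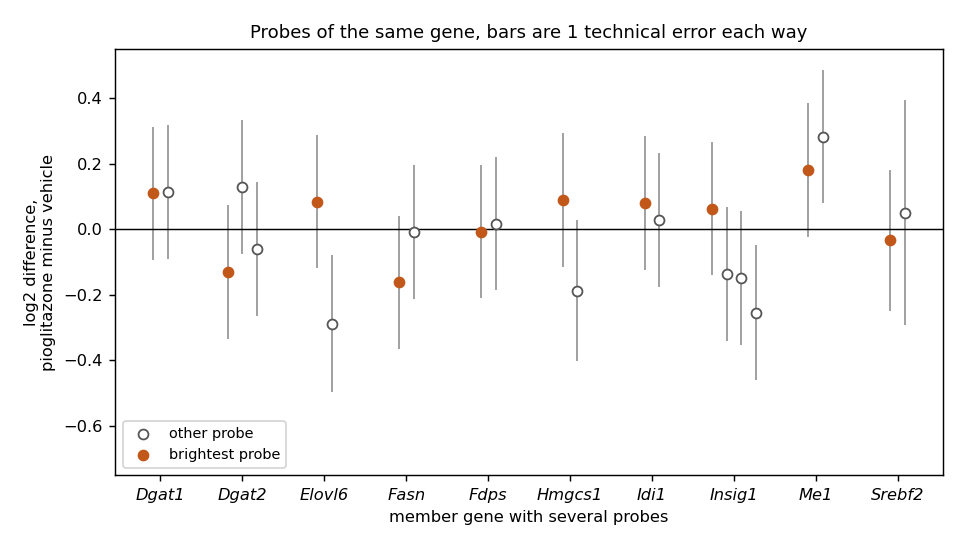
Log2 difference, pioglitazone minus vehicle, of every probe of the 10 listed genes with several probes, with bars of 1 technical error each way. The filled point is the brightest probe, which gives the gene's value. Probes of 4 genes share a sign and those of 6 do not, with the widest gap at Elovl6 (0.08 and -0.29).

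Each of the 51 probes was read from 1 spot, and none carried an outlier flag. Of the 10 genes with several probes, Dgat1, Fasn, Idi1 and Me1 had probes of the same sign, and Dgat2, Elovl6, Fdps, Hmgcs1, Insig1 and Srebf2 did not. Every one of these probes lay within 2 technical errors of 0. The 4 genes past 1.5-fold had 1 probe each, so no second probe bears on them. Large differences crowded on part of the array, and these 4 probes lay elsewhere. When the grid was split by rows into 10 bands, the sixth and the seventh together accounted for 20.8% of the 30558 spots above background on both arrays, but for 44.8% of the 174 that were 2-fold apart. Of the listed genes 8 were read there, among them Cyp51. Of the genes outside the list that are given below, Acsl5, Acsl6, Soat2, Aqp3, Trem2, Cyp11b1 and Cyp11b3 lay in the sixth band. Lpin2, Pmvk, Cfd, Cd2 and Akr1b7 lay in the seventh.

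**Figure D4:**
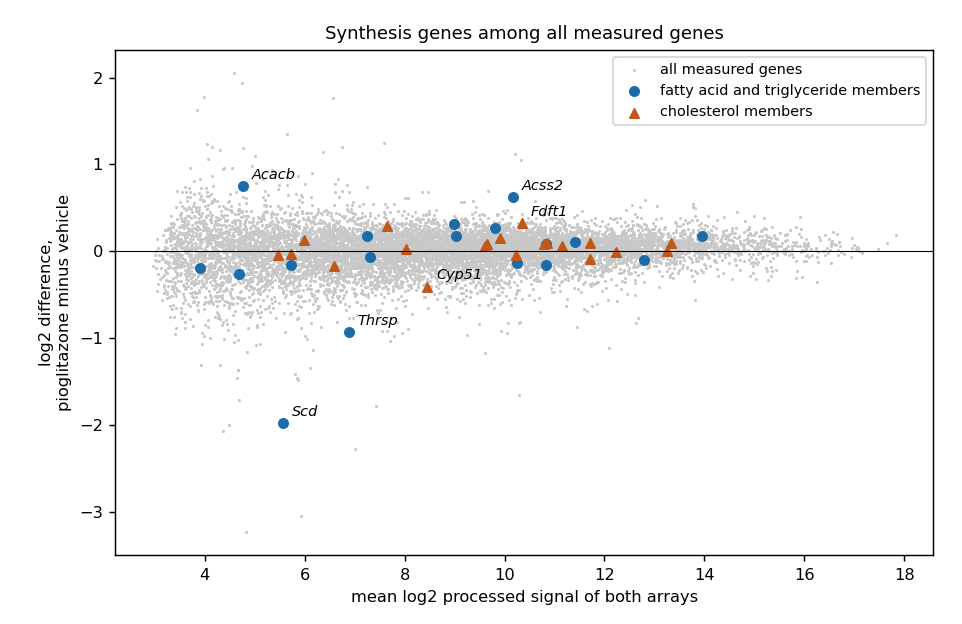
Log2 difference, pioglitazone minus vehicle, against the mean log2 processed signal of both arrays for 10484 measured genes (grey), with fatty acid and triglyceride genes as circles and cholesterol genes as triangles. Genes past the lower limit of 0.32 are labelled. Scd (-1.98) and Thrsp (-0.93) lie below the grey cloud at low signal, Acss2 (0.63) lies at its upper edge at higher signal, and the cholesterol genes lie inside it.

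Another 58 genes of these pathways were read from a separate list. Of 47 measured, 0 met the 1.5-fold criterion in either direction, 32 had differences above 0 and 15 below, and the median was 0.09. Of all measured genes 0.754% were higher and 1.76% lower by that criterion, and 5889 lay above 0 and 4595 below. Among enzymes of fatty acid supply and activation, the malonyl-CoA decarboxylase Mlycd was highest at 0.38 ± 0.20 (3750 and 5170) and the acyl-CoA synthetase Acsl1 next at 0.25. Acsl5 was lowest at -0.18, then Acsl4 at -0.01. Acsl6 was seen with vehicle alone, at a signal of 52.5 against 1.43, which was not well above background. Against the lowest signal well above background it was at least 7.76-fold lower with pioglitazone.

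Of the other elongation genes, Elovl1 was at 0.41 ± 0.20 (2370 and 3340) and Hsd17b12 at 0.26, while Hacd3 and Elovl2 were both at -0.08. For triglycerides, the acyltransferases Agpat5 and Mogat2 were at 0.36 and 0.26, and Gpat3 and Lpin2 at -0.07 and -0.05. Among sterol enzymes Ggps1 and Erg28 were at 0.33 and 0.27, and Pmvk was at -0.14. For sterol esterification and sensing, the acyltransferase Soat2 was at 0.52 ± 0.29 and the SREBP protease Mbtps2 at 0.30 ± 0.33. Both were dim, with signals of 13.1 and 19.9 for Soat2 and of 13.7 and 17.8 for Mbtps2, and both differences lay within 2 technical errors of 0.

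Scd and Thrsp are also abundant in fat cells, so adipocyte markers were read beside them. Of 17 adipocyte markers 12 were measured, and 3 of these were lower by the 1.5-fold criterion and 0 higher. The hormone resistin (Retn) gave 276 and 60.4 (-2.27 ± 0.21), the uncoupling protein Ucp1 310 and 95.3 (-1.78 ± 0.21) and the protease adipsin (Cfd), read in the seventh grid band, 1140 and 534 (-1.18 ± 0.20). The carbonic anhydrase Car3 was seen with vehicle alone, 38 against 7.82, at least 5.14-fold lower. The adipocyte hormone Adipoq was present at 822 and 814 (-0.10 ± 0.20), as were Fabp4 at 249 and 251 (-0.07) and the lipid droplet gene Cidec at 168 and 178 (0.00). Leptin (Lep) was not well above background on either array, and Gpd1 and Pnpla2 were highest at 0.45 and 0.17. The median of the list was -0.08, and the summed signal of its measured genes was 5495 with vehicle and 4833 with pioglitazone. The 2 lower synthesis genes were thus lower along with Retn, Ucp1, Cfd and Car3, while Adipoq, Fabp4 and Cidec lay at 0. The part of fat tissue in these differences was not tested.

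**Figure D5:**
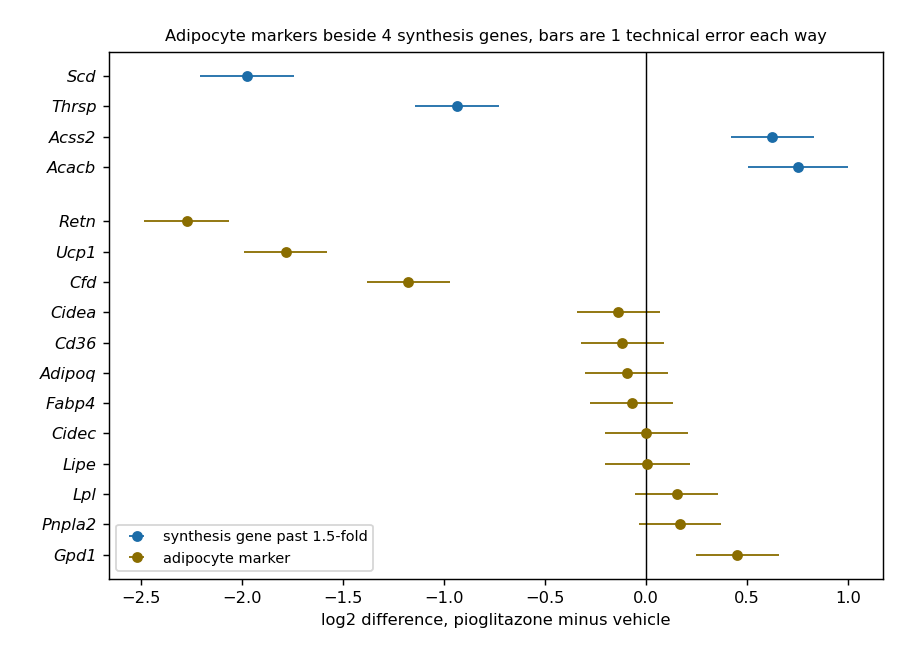
Log2 difference, pioglitazone minus vehicle, of the 4 synthesis genes past 1.5-fold (top) and the 12 measured adipocyte markers (bottom), with bars of 1 technical error each way. Retn (-2.27), Ucp1 (-1.78) and Cfd (-1.18) lie near Scd (-1.98) and Thrsp (-0.93), and Adipoq (-0.10), Fabp4 (-0.07) and Cidec (0.00) lie at 0.

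Markers of other cell types differed too. The 13 proximal tubule markers had a median of 0.21 and a summed signal of 227517 and 262576, led by Slc7a7 and Slc5a1 at 0.33, with Slc4a4 alone below 0 at -0.07. The median of 9 other nephron markers was 0.13, with Nphs1 at 0.32, and Aqp2 and Aqp3 at -0.34 and -0.29. All 11 measured macrophage markers were below 0, with a median of -0.35 and summed signals of 14714 and 12001. Itgam (-0.77 ± 0.28), Trem2 (-0.66) and Gpnmb (-0.61) met the 1.5-fold criterion, Itgam on a dim probe with signals of 24.3 and 15.1. All 7 measured lymphocyte markers were below 0 as well (median -0.30, lowest Cd2 with -0.87, then Cd3g with -0.55). The Cd2 probe was dim too, with signals of 22.0 and 12.7. All 8 fibroblast markers were also below 0 (median -0.37, lowest Fbn1 with -0.65, then Col3a1 with -0.63). The adrenal cortex, which makes and uses much cholesterol, was read as well. Of 10 markers with a probe, 5 were measured, and 4 were not well above background on either array, among them Cyp11a1 and the receptor Mc2r. The summed signals of the measured genes were 7341 and 8748, mostly from Fdx1 (5750 and 6130). The median of the adrenal cortex list was 0.01 over 5 genes. Akr1b7 was at 1.12 (784 and 1800), Cyp11b3 at 0.38 (114 and 157), Scarb1 at -0.15 and Hsd3b1 at -0.33. Cyp11b1 was seen with vehicle alone and was at least 4.27-fold lower. The part of these cell types in the listed genes was not tested.

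Promoter windows are shown for the 4 genes past 1.5-fold, and for Mvk as a cholesterol gene whose difference lay near 0, because both routes share SREBP as a driver. RefSeq windows of the GRCr8 assembly, 250 bases before to 50 after the gene's start, were found for 31 of the 39 genes. Each is printed 5′ to 3′ on the gene's strand, with capitals marking the motif letters found. Scd lies at chr1:253231682-253231981 on the minus strand, Thrsp at chr1:161138915-161139214 (minus), Acss2 at chr3:164464453-164464752 (plus), Acacb at chr12:48138165-48138464 (minus) and Mvk at chr12:47819454-47819753 (minus).
Scd: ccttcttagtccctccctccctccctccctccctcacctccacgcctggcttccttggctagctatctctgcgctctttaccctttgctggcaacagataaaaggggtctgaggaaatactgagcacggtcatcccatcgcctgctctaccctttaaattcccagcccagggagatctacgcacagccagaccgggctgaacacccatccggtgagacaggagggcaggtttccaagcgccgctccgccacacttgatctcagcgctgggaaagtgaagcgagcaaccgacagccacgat
Thrsp: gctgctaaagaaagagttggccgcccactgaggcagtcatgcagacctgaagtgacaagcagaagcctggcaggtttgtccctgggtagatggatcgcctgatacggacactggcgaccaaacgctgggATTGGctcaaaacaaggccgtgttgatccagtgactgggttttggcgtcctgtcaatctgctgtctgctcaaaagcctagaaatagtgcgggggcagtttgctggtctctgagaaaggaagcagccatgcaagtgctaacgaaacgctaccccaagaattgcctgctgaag
Acss2: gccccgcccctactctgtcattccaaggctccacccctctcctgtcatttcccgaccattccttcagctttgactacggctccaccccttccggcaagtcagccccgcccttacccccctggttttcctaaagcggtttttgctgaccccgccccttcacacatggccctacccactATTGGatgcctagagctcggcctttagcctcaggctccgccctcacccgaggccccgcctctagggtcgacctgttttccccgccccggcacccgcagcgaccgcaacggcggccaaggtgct
Acacb: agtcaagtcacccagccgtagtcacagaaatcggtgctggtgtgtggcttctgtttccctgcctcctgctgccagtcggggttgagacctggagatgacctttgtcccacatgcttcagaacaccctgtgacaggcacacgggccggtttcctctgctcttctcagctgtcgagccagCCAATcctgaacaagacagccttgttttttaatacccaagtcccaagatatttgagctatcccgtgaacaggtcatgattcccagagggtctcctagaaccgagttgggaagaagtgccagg
Mvk: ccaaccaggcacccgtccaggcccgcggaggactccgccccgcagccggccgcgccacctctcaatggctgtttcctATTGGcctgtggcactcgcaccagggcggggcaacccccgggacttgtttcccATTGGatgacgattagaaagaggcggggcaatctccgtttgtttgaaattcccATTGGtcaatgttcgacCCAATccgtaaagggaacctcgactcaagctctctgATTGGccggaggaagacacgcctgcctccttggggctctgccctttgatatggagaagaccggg

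The motifs searched on both strands were a sterol regulatory element (TCACNCCAC, where SREBP can bind), an E-box (CACGTG, which SREBP and ChREBP can bind), an NF-Y box (CCAAT) and a direct repeat of AGGTCA with 1 base between, the type bound by PPAR with its partner RXR. None of these contains another. The NF-Y box was found in 24 of the 31 windows, 77.4%, and in 37.7% of all 27457 windows. It was in 14 of 17 windows of cholesterol genes and 10 of 14 of fatty acid genes. Of the genes shown, Thrsp, Acss2 and Acacb held 1 copy each, Mvk held 5 and Scd none, so the box was present in genes that were higher, lower or level. Mvk shares the highest count among the listed genes with Nsdhl, so it is not a typical cholesterol gene for this box. Ebp and Fdps, which had smaller differences than Mvk, held fewer copies. The E-box was found in the windows of Elovl5, Insig1 and Sc5d, 9.68% of those of listed genes and 6.65% of all. The sterol regulatory element and the direct repeat were found in 0 of the 31 windows, and in 1.13% and 0.0583% of all windows. A missing match says only that these letters are not in this window.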

How the data were processed

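The authors deposited 1 Agilent scanner file per array. Its processed spot intensity, on a linear scale, has background subtracted and was not scaled between arrays, per the file headers. The software was Agilent Feature Extraction, version 10.7.3.1 per the submitters' processing notes. The authors' value table holds the same intensity at all 43379 spots besides controls of each array.

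For each array, log2 signals were expressed relative to their 75th percentile. Spots with an outlier flag, 149 in all, were left out, and replicate spots were averaged. Unversioned accessions were matched to the RefSeq gene table of GRCr8, which named 16959 of 40998 probes and left 24039 unnamed. The files use another build, so no array coordinates are given. Each gene is represented by the probe of highest mean signal, and is measured if both arrays read that probe unsaturated and well above background, as for 10484 of 13435 genes. The median technical error was 0.20. For a gene seen on 1 array, the bound divides its value by the dim probe's own or by the lowest among probes well above background, whichever is higher.

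The listed genes, the other lists and the limits were chosen with earlier results of these data known, and the pairs of genes set side by side were chosen after their values were seen. Every listed gene is named. Of other lists, the text names genes past 1.5-fold and 2 technical errors, genes with a bound, and the 2 largest differences each way. It also names defining markers, close relatives of listed genes, and Fdx1 for its share of a summed signal. Some genes that this rule would name are not reported here. The steps were tested on simulated data. Alternatives were other scalings, probe rules, filters and background correction, the last by normexp on median spot signals with an offset of 50, by the offset alone and by normexp alone. Python 3.11.15, numpy 2.4.6, pandas 2.3.3, matplotlib 3.10.9, R 4.3.3 and limma 3.58.1 were used.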

Additional observations from a re-analysis of the deposited data

How the results depend on the processing

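With 1 pooled array per group, no setting gives a p-value. No paired analysis was possible because there is 1 array in each group. Of the recomputed counts, medians and bounds, 244 stayed within 1.5 times (counts) or their spread (others) and 11 did not, and none of the 4 genes past 1.5-fold turned its direction. Among genes above the median signal, which leaves out Acacb, Scd, Thrsp and Cyp51, 1 listed gene was higher and 0 lower by the 1.5-fold criterion, and 0 were lower past 0.32. The median of the fatty acid regulators was then 0.32, from Mlxipl alone, and that of other sterol enzymes -0.11. With normexp and an offset of 50, on median spot signals, 1 listed gene, Acss2, was higher by each limit, and Acacb was at 0.24. Adding 50 to the processed signals without normexp, chosen after seeing the data, likewise left 1 by each limit and put Acacb at 0.22, whereas normexp without the offset, also chosen afterwards, left Acacb at 0.68, so the offset accounts for most of that shift. Listed genes higher past 0.32 numbered 5 with median scaling and 6 without scaling, under which the median of all genes was 0.08 and 0.11. Over all settings Scd ran from -1.99 to -0.94, Thrsp from -0.95 to -0.62, Acss2 from 0.60 to 0.71, and the median of the cholesterol genes from 0.02 to 0.15. Of all genes, 79 were higher and 184 lower by the 1.5-fold criterion, 109 and 132 with median scaling, 130 and 117 without scaling, 9 and 48 with normexp and offset, 14 and 45 with the offset alone, 45 and 161 with normexp alone, 5 and 30 above the median signal, and 128 and 229 without the filter on dim probes. Leaving out the sixth and the seventh grid bands, chosen after seeing the data, kept 2 listed genes past 1.5-fold each way. These 4 genes were read in other bands and their values stayed the same, so the count could not fall and shows nothing further.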
